A study of Homo sapiens with 6 samples.

Results

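AGR2, AGR3 and TXNDC12 code for the 3 small thioredoxin-fold proteins of the anterior gradient family, and their transcripts are described here out of 58051 genes counted in OE33 cells. OE33 is an established human oesophageal adenocarcinoma cell line. The 3 genes were chosen by family membership, with the rise of AGR2 in these same libraries already known, so their levels and changes are given as a description with no test. RNA was sequenced from 3 cultures given 15 µM APX2009 for 24 h and from 3 untreated cultures, for which no vehicle is named. APX2009 blocks the redox function of APE1, which is known also as a DNA repair enzyme. The series design calls the replicates independent and biological. The comparison shows which transcripts differ between treated and untreated cells, and whether they depend on that redox function was not tested. AGR2 and TXNDC12 passed the filter on low counts, and AGR3 had no count in any library.

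Anterior gradient proteins are resident in the endoplasmic reticulum, where thioredoxin-fold proteins form, break or shuffle disulphide bonds of proteins that are being secreted. AGR2 is made by mucous and other secretory epithelia. In mouse intestine it is needed for the secreted mucin Muc2, and it is raised in Barrett's oesophagus and in many adenocarcinomas. AGR3, its neighbour on the chromosome, is found in ciliated airway cells and in hormone-responsive tumours. TXNDC12, also called ERp18 or AGR1, is broadly expressed and has an oxidoreductase site with a pair of cysteines.

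The stretch of the coding sequence that holds the thioredoxin-type site shows how the 3 genes differ. Each sequence below is the sense strand of the GENCODE 29 transcript that is paired with a curated RefSeq mRNA, with the 4 codons of the site in capitals. The first of these codes for cysteine in all 3 genes. The last codes for serine in AGR2 and AGR3 and for cysteine in TXNDC12.
AGR2: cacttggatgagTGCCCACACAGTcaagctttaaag
AGR3: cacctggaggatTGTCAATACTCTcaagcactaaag
TXNDC12: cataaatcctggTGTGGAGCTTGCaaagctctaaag

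These stretches lie on the minus strand of GRCh38 within chr7:16799810-16801178 for AGR2, chr7:16862053-16862637 for AGR3 and chr1:52027341-52028605 for TXNDC12, and each spans an intron. Counted from the start codon, the site takes codons 81 to 84 of 175 in AGR2, 71 to 74 of 166 in AGR3 and 66 to 69 of 172 in TXNDC12. AGR2 has 1 cysteine codon in its whole coding sequence, AGR3 has 2 and TXNDC12 has 3. The encoded proteins of AGR2 and AGR3 were identical at 109 of 164 aligned residues (66.5%). AGR2 and TXNDC12 were identical at 60 of 160 (37.5%), and AGR3 and TXNDC12 at 63 of 160 (39.4%). The coding sequences end in the 4 codons of a retrieval signal of the endoplasmic reticulum, shown in capitals in the last 24 bases before the stop codon.
AGR2: ctcaagttgctgAAGACTGAATTG
AGR3: ttaagacttattCAGTCAGAGCTA
TXNDC12: aagaaacatcttGAAGATGAATTG

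The libraries held 26111656, 22486741 and 21158750 gene counts in the APX2009 group and 22443569, 25093753 and 22601491 in the untreated group. APX2009 replicate 1 stood apart. It had counts in 25015 genes, against 21845 to 22446 in the other 5 libraries, and ERCC spike-in transcripts took 0.315% of its counts, against 0.480% to 0.752% elsewhere. It also held 1.79 CPM of COL3A1 and 1.57 CPM of DCN, fibroblast genes listed at 0 in the other 5 libraries (CPM, counts-per-million of the TMM-scaled library size). The 8 fibroblast markers summed to 19.4 CPM in it, against 9.10 and 10.5 CPM in the other APX2009 libraries. In the untreated libraries they summed to 8.35 to 12.6 CPM, and THY1 was at 0 throughout. COL1A1 made up most of each sum, with 14.3 CPM in APX2009 replicate 1 and 8.35 to 12.6 CPM elsewhere. Leukocyte markers summed to 6.80 to 7.89 CPM with APX2009 and 6.12 to 6.82 CPM untreated, and endothelial markers to 7.48 to 8.26 CPM with APX2009 and 7.02 to 7.78 CPM untreated, with CD3D and CD3E at 0. Single genes moved inside these sums: CD68 had 3.17 ± 0.637 CPM with APX2009 and 1.39 ± 0.436 CPM untreated (SD, n = 3 each; edgeR adjusted p = 0.00513). ESAM carried most of the endothelial sum, while VWF had 1.34 CPM in APX2009 replicate 1 and at most 0.321 CPM elsewhere, and PECAM1 had 0.374 CPM there and at most 0.0479 CPM elsewhere. Epithelial markers summed to 17300 to 21260 CPM with APX2009 and 29690 to 30410 CPM untreated, and KRT19 made up most of each sum. Of 12 tested epithelial markers 5 fell (edgeR), against 17.4% of all genes tested. The median log2 change of the 12 was -0.06. EPCAM, one of these markers, had 445.7 ± 4.90 CPM with APX2009 and 446.6 ± 12.4 CPM untreated. Squamous markers summed to 15.3 to 19.8 CPM with APX2009 and 65.3 to 70.0 CPM untreated, with both tested genes lower, KRT13 (log2 change -2.22, edgeR adjusted p = 4.09e-07) and IVL (-0.92, edgeR adjusted p = 8.54e-04). In bulk libraries the number of cells of a type and the RNA per cell cannot be told apart. The part of the other cell types in the values of the family was not tested. The count of all called genes, the changes of AGR2 and TXNDC12, and the calls in each list outside these markers were also fitted without APX2009 replicate 1. Tests of other single genes and of these markers, shares and likeness were not recomputed without it.

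AGR2 was 7.26 times as abundant in treated as in untreated cells, TXNDC12 was slightly higher, and AGR3 was not detected. AGR2 (ENSG00000106541, GRCh38 chr7:16791811-16833433, minus strand) had 308.9, 286.2 and 269.6 CPM in APX2009 replicates 1, 2 and 3, against 41.4, 38.0 and 39.8 CPM in untreated replicates 1, 2 and 3. All 3 treated libraries lay far above all 3 untreated ones, and no library of either group was close to the other group. The means were 288.2 ± 19.8 CPM with APX2009 and 39.7 ± 1.74 CPM untreated (SD, n = 3 each), a log2 change of 2.86 ± 0.08 (SE, edgeR), which is 7.26-fold. Over the 9 possible pairs of a treated and an untreated library the ratio ran from 6.51 to 8.14. Without APX2009 replicate 1, the highest of the treated libraries, the log2 change was 2.80. Counting error was small beside this gap. The lowest treated library, APX2009 replicate 3, had an AGR2 level of 266.3 CPM without TMM scaling (95% exact interval 259.4 to 273.3), and the highest untreated one, replicate 1, had 41.4 (38.7 to 44.1). These intervals cover counting error only.

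**Figure D1:**
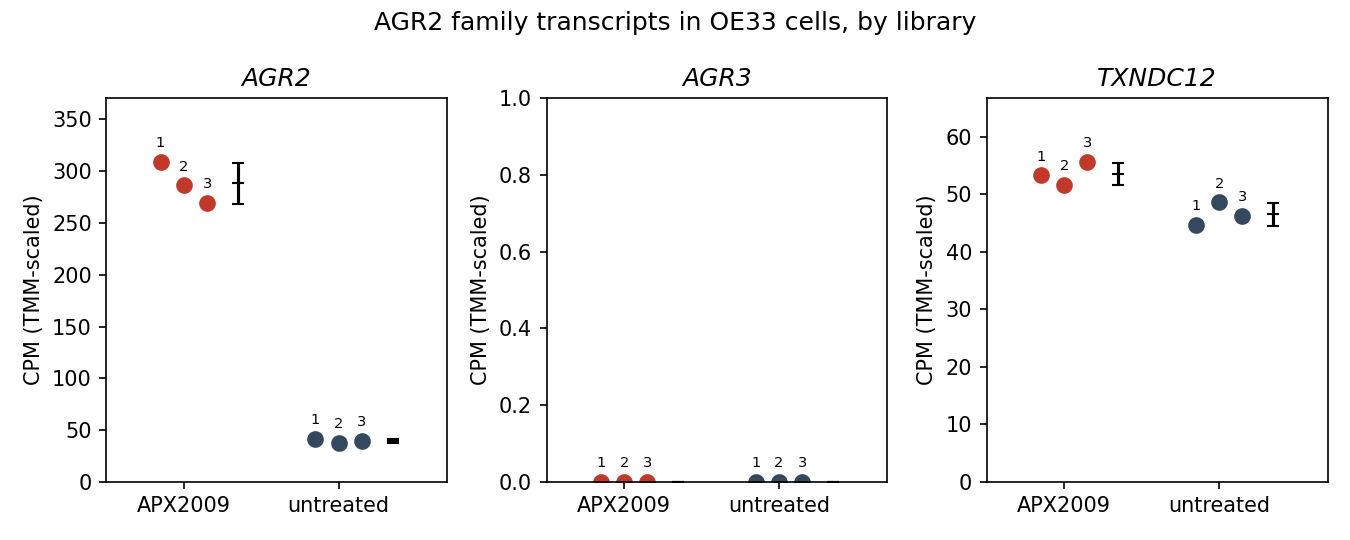
Levels of AGR2, AGR3 and TXNDC12 (CPM, TMM-scaled, linear axes from 0) in each library of OE33 cells given APX2009 (red, left) and untreated (dark, right). Points are libraries with their replicate number, and the bar beside each group is the mean ± SD of 3. AGR2 lay between 269.6 and 308.9 CPM with APX2009 and between 38.0 and 41.4 CPM untreated, AGR3 was at 0 in all 6 libraries, and TXNDC12 differed by a log2 change of 0.20.

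The rise moved AGR2 up the order of transcripts in these cells. By CPM it ranked 508 to 676 among the genes detected in a library with APX2009, and 4932 to 5238 untreated. Per length of annotated exon, among protein-coding genes, it ranked 288 to 377 with APX2009 and 3049 to 3282 untreated. Its log2 change was the 56th highest of 14773 genes tested. Set against the ERCC spike-in total, AGR2 had 100.1, 37.8 and 36.03 counts per 1000 spike-in counts in APX2009 replicates 1, 2 and 3, against 7.43, 7.82 and 6.98 in untreated replicates 1, 2 and 3. The lowest treated library was again well above the highest untreated one, and the value of APX2009 replicate 1 went with its low spike-in share. Scaled by the ERCC total, the log2 change of AGR2 was 2.97 with all libraries and 2.32 without APX2009 replicate 1.

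TXNDC12 (ENSG00000117862, chr1:52020131-52056171, minus strand) had 53.3, 51.7 and 55.6 CPM in APX2009 replicates 1, 2 and 3, against 44.7, 48.6 and 46.2 CPM in untreated replicates 1, 2 and 3. The gap between the lowest treated and the highest untreated library was small, with pairwise ratios from 1.06 to 1.25. The share of all genes whose groups separate in this way was not counted. The means were 53.5 ± 1.97 CPM with APX2009 and 46.5 ± 1.98 CPM untreated (SD, n = 3 each), a log2 change of 0.20 ± 0.06 (SE), or 1.15-fold. It ran from 0.17 to 0.24 when any 1 library was left out. Per 1000 spike-in counts TXNDC12 had 17.3, 6.83 and 7.43 counts in APX2009 replicates 1, 2 and 3, against 8.01, 10.0 and 8.12 in untreated replicates 1, 2 and 3. On that scale the groups overlapped: APX2009 replicate 1 lay above every untreated library, and the other two treated libraries lay below them. Scaled by the ERCC total, the log2 change of TXNDC12 was 0.27 with all libraries and -0.29 without APX2009 replicate 1, so its direction there turned on that library. In the edgeR fit across all genes, 34.7% of those tested were called at a Benjamini-Hochberg adjusted p under 0.05, 17.2% higher and 17.4% lower. The members are not counted against this background, since this contrast was known when they were chosen.

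TXNDC12 shares its locus with other genes, and the strand setting of the counting is not given. KTI12 lies inside it on the same strand and had 12.03 ± 1.26 CPM with APX2009 and 13.2 ± 0.934 CPM untreated (SD, n = 3 each; edgeR log2 change -0.13, adjusted p = 0.374). BTF3L4 starts at its 5′ end on the other strand and had 60.5 ± 3.80 CPM with APX2009 and 58.4 ± 0.568 CPM untreated (edgeR log2 change 0.05, adjusted p = 0.568). Neither passed the test, and TXNDC12-AS1 had at most 1 count in a library. Reads from the stretches these genes share with TXNDC12 cannot be told apart, which leaves its small difference uncertain. No other protein-coding gene, and no other gene with a count in these libraries, overlaps AGR2.

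AGR3 (ENSG00000173467, chr7:16859405-16881987, minus strand) had 0 counts in all 6 libraries. A count of 0 allows up to 3 counts, which is 0.115 to 0.142 CPM without TMM scaling in a library with APX2009 and 0.120 to 0.134 CPM in an untreated one. Over the summed libraries the limit was 0.0430 CPM with APX2009 and 0.0428 CPM untreated. AGR3 was therefore not detectable at this depth in either group, and no fold change can be given, although its neighbour AGR2 gave 20346 counts with APX2009 and 2769 untreated. Of 22 genes of ciliated cells, where AGR3 is known from the airway, 11 passed the filter on low counts. Of these 1 rose, 2 fell and 8 did not pass the test (edgeR), with a median log2 change of 0.05. Among all genes tested 17.2% were called higher and 17.4% lower. RSPH1, a radial spoke gene, rose, while FOXJ1, the master factor of motile cilia, and the tubulin gene TUBB4B fell. FOXJ1 had 0.324 ± 0.170 CPM with APX2009 and 4.11 ± 0.300 CPM untreated (SD, n = 3 each; edgeR log2 change -3.68, adjusted p = 1.47e-05). DNAH9, CFAP126 and SPAG6 were at 0 in all libraries, and the summed level of the list was 221.3 to 247.7 CPM with APX2009 and 292.0 to 294.6 CPM untreated, most of it TUBB4B.

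Per kilobase of annotated exon, which allows genes to be compared, the order within the family was AGR2, TXNDC12, AGR3 in both groups. AGR2 had 101.3 ± 6.94 CPM per kb and TXNDC12 13.9 ± 0.513 with APX2009. In untreated cells AGR2 had 14.0 ± 0.613 CPM per kb and TXNDC12 12.1 ± 0.515 (SD, n = 3). The untreated levels were close, from 13.3 to 14.6 CPM per kb for AGR2 and from 11.6 to 12.6 for TXNDC12, without overlap. These levels use all annotated exons of a gene, so their order in untreated cells depends on that length.

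AGR2 took a larger place among the thioredoxin-fold genes of the endoplasmic reticulum in treated cells. Over 26 such genes, AGR2, AGR3 and TXNDC12 included, AGR2 made up 9.47%, 8.65% and 8.14% of the summed CPM per kb in APX2009 replicates 1, 2 and 3, against 2.37%, 2.16% and 2.27% in the untreated replicates. The share of AGR2 was thus higher in every treated library than in any untreated one, and it ranked 5 of the 26 with APX2009 and 9 untreated. TXNDC12 made up 1.203% ± 0.0440 of the sum with APX2009 and 1.96% ± 0.0791 untreated (SD, n = 3 each), a lower share at a higher CPM. P4HB, the classical protein disulphide isomerase, held 12.5% ± 1.05 with APX2009 and 16.9% ± 0.406 untreated. Its own level was higher, at 766.3 ± 70.9 CPM with APX2009 and 552.4 ± 14.5 CPM untreated (log2 change 0.47, edgeR adjusted p = 0.00134).

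Of the 23 other thioredoxin-fold genes of this compartment 18 were tested. Of these 10 rose, 1 fell and 7 did not pass (edgeR), where 17.2% of all genes tested rose and 17.4% fell. Their median log2 change was 0.31, against 0.02 over all genes tested. PDIA4, a stress-induced isomerase gene and the next after AGR2, rose by 1.63 ± 0.06 on the log2 scale (edgeR adjusted p = 1.44e-07). PDIA3, which serves glycoproteins with calnexin and calreticulin, rose by 1.28 ± 0.06 (edgeR adjusted p = 5.22e-07). ERP44, which retrieves proteins from the early secretory pathway, rose by 1.11 ± 0.06 (edgeR adjusted p = 1.19e-06). The membrane protein gene TMX4 fell by 0.32 on the log2 scale (edgeR adjusted p = 0.00620). TXNDC5 and ERP29 had log2 changes of 0.25 and -0.11 and did not pass (edgeR adjusted p = 0.0729 and 0.216). Among the 20 tested genes, family included, AGR2 ranked 1 and TXNDC12 ranked 13 by log2 change. Without APX2009 replicate 1, 14 of the other genes were called in place of 11, and over all genes 5709 in place of 5119.

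**Figure D2:**
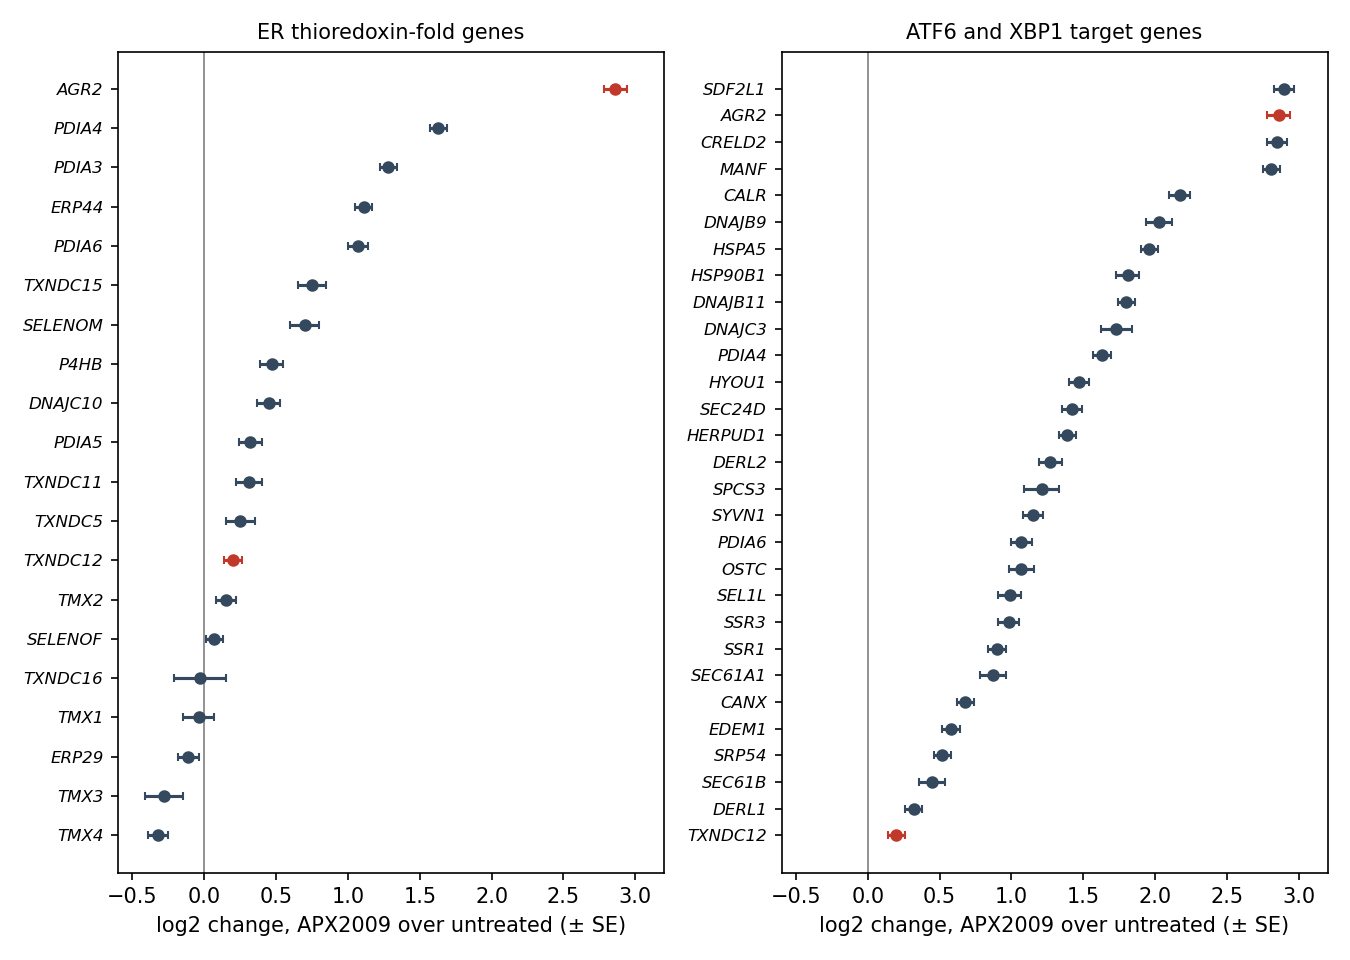
Log2 change (APX2009 over untreated, ± SE, edgeR) of AGR2 and TXNDC12 (red) beside tested thioredoxin-fold genes of the endoplasmic reticulum (left) and tested ATF6 and XBP1 target genes (right), each ordered by its change. AGR2 at 2.86 stood above PDIA4 at 1.63 in the left panel and between SDF2L1 at 2.90 and CRELD2 at 2.85 in the right one, while TXNDC12 at 0.20 lay below all 27 targets.

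The profile of AGR2 across the 6 libraries was close to those of secreted and luminal stress proteins of the endoplasmic reticulum. Likeness was measured as the root mean square distance between profiles of log2 CPM, each taken as differences from its untreated mean, over 9483 protein-coding genes whose log2 CPM averaged 3 or more. The closest were CRELD2 (distance 0.029), MANF (0.083), SDF2L1 (0.113), the endoplasmic oxidase gene ERO1B (0.114) and the glutathione synthesis gene GCLC (0.118). CRELD2 had 182.6 CPM with APX2009 and 25.3 CPM untreated, and ERO1B had 28.3 CPM with APX2009 and 3.82 CPM untreated. The closest to TXNDC12 were SLC39A9 (0.014), MAPRE1 (0.022), BAIAP2L1 (0.023) and CSNK2A2 (0.023), genes of several kinds. Such a likeness is mostly set by the size of the change between groups.

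All 27 tested target genes of ATF6 and XBP1, factors of the unfolded protein response, rose (edgeR), against 17.2% of all genes tested. Without APX2009 replicate 1, 27 were also called in either direction, and over all genes 5709 in place of 5119. The median log2 change of the targets was 1.27, below that of AGR2 and above that of TXNDC12. In single libraries the log2 difference of AGR2 from its untreated mean was 2.96, 2.85 and 2.76 in APX2009 replicates 1, 2 and 3. The median of the 27 targets was 1.35, 1.33 and 1.17 in the same libraries, and TXNDC12 was at 0.20, 0.15 and 0.26. AGR2 and the median of the targets were thus both highest in replicate 1 and lowest in replicate 3. TXNDC12 was highest in replicate 3. Single targets often departed from that order. HSPA5, CALR, HERPUD1 and PDIA6 were highest in replicate 3, and MANF, SDF2L1 and DNAJB11 in replicate 2. CRELD2 and PDIA4 had the order of AGR2, so that order was not shared by the list as a whole. These spreads between treated libraries were small beside the change of AGR2. PDIA4 and PDIA6 stand in both this list and that of thioredoxin-fold genes.

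**Figure D3:**
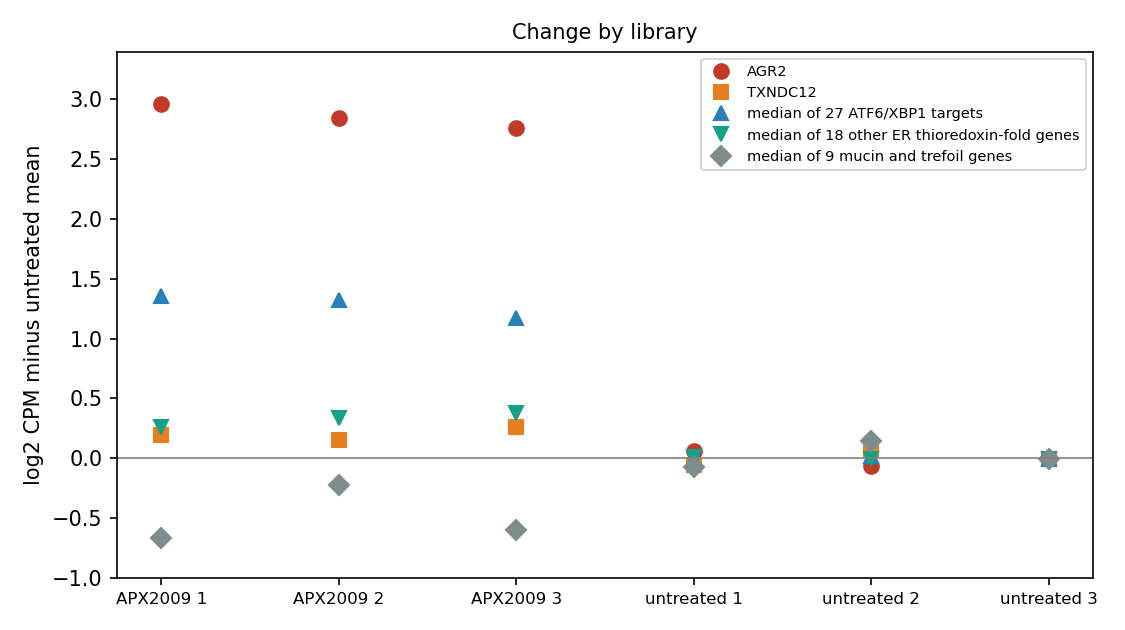
Difference of log2 CPM from the untreated mean in each library, for AGR2, TXNDC12 and the medians of 3 gene lists. AGR2 lay at 2.76 to 2.96 in the APX2009 libraries and near 0 in the untreated ones, the median of the ATF6 and XBP1 targets at 1.17 to 1.35, and the median of mucin and trefoil genes below 0 in all 3 APX2009 libraries.

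Among factors and sensors linked to AGR2 or to columnar identity, 24 of 30 were tested. Of these 9 rose and 5 fell (edgeR), with a median log2 change of 0.12. The shares that rose and fell over all genes tested were 17.2% and 17.4%. XBP1, a factor of the unfolded protein response, rose to 332.5 ± 18.8 CPM with APX2009, against 233.2 ± 5.90 CPM untreated (SD, n = 3 each; edgeR log2 change 0.51, adjusted p = 2.97e-04). Gene counts cannot show the splicing that activates it. The sensor gene EIF2AK3 rose by a log2 change of 1.43 (edgeR adjusted p = 1.52e-06), and ATF6 itself had 126.1 ± 7.39 CPM with APX2009 and 125.2 ± 5.83 CPM untreated and did not pass (adjusted p = 0.916). The forkhead factors FOXA1 and FOXA2, known activators of AGR2, rose by log2 changes of 0.40 and 0.85 (edgeR adjusted p = 9.57e-04 and 8.59e-04). SPDEF, the goblet cell factor, averaged 0.121 CPM with APX2009 and 0.376 CPM untreated and was below the filter. Those that fell include SOX9 and FOXM1, a columnar lineage factor and a proliferation factor described as an activator of AGR2, each by 0.92 on the log2 scale (edgeR adjusted p = 1.16e-05 and 1.92e-05). ERN2, the stress sensor of mucous epithelium, had 3.41 ± 0.275 CPM with APX2009 and 6.68 ± 0.506 CPM untreated (SD, n = 3 each; edgeR adjusted p = 5.06e-04), and ATF6B fell by 0.41 (edgeR adjusted p = 0.00154). SMAD4, which carries the TGF-beta signal that is known to lower AGR2, rose by a log2 change of 0.31 (edgeR adjusted p = 0.0119).

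Mucins are known clients of AGR2, and trefoil factors are secreted with them. Of 17 mucin and trefoil genes 9 were tested, of which 1 rose and 3 fell (edgeR), with a median log2 change of -0.44. As a share of all genes tested, 17.2% rose and 17.4% fell. Without APX2009 replicate 1, 4 mucin and trefoil genes in all were called, and over all genes 5709 in place of 5119. MUC20 had 753.3 ± 135.0 CPM with APX2009 and 450.1 ± 12.5 CPM untreated (SD, n = 3 each; log2 change 0.74, edgeR adjusted p = 8.54e-04). MUC1, a membrane mucin, had 21.9 ± 3.25 CPM with APX2009 and 57.2 ± 2.66 CPM untreated (edgeR adjusted p = 7.56e-06). MUC3A and MUC16 fell by 0.60 and 2.01 on the log2 scale, MUC16 from a low level (2.15 CPM untreated, 0.535 CPM with APX2009). MUC4 had 499.8 ± 30.1 CPM with APX2009 and 514.8 ± 155.0 CPM untreated and did not pass (edgeR adjusted p = 0.878). The summed level of the list was 1119 to 1401 CPM with APX2009 and 899.3 to 1148 CPM untreated, most of it MUC4 and MUC20. The secreted mucin genes MUC5AC and MUC2 averaged 6.61 and 0.300 CPM with APX2009 and 8.95 and 0.614 CPM untreated and did not pass (edgeR adjusted p = 0.200 and 0.0597). TFF3 was at 0 in all libraries, as were the goblet genes ATOH1, ZG16, CLCA1 and REG4. Of 29 goblet and mucous cell genes 15 were tested, and 3 rose and 6 fell, beside the same shares over all genes. Their median log2 change was -0.45. TSPAN13, RAP1GAP and BCAS1 rose, and those that fell include SYTL2, GALNT12, TSPAN8 and FCGBP.

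Proteins described as partners, clients or effectors of AGR2 went several ways. Of 14 genes 13 were tested, of which 4 rose and 3 fell (edgeR), against 17.2% and 17.4% of all genes tested. Their median log2 change was 0.01. HSPA5, the chaperone BiP, rose to 3643 ± 84.4 CPM with APX2009, against 938.4 ± 19.3 CPM untreated (SD, n = 3 each; log2 change 1.96, edgeR adjusted p = 3.62e-08), and stands also among the ATF6 and XBP1 targets. LYPD3, described as a surface receptor of secreted AGR2, had 11.8 ± 2.01 CPM with APX2009 and 6.27 ± 0.273 CPM untreated (SD, n = 3 each; edgeR adjusted p = 8.81e-04). DAG1, another described receptor, had 139.3 ± 13.9 CPM with APX2009 and 172.3 ± 1.47 CPM untreated (edgeR adjusted p = 0.0121). TMED2, a transport protein that binds AGR2, rose by a log2 change of 0.89 (edgeR adjusted p = 1.34e-05), and AREG, an EGF-family ligand that AGR2 can induce, by 0.50 (edgeR adjusted p = 0.00304). EGFR and EPCAM, whose proteins AGR2 helps to the surface, had log2 changes of -0.04 and 0.00 and did not pass (edgeR adjusted p = 0.775 and 0.980).

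The genes beside AGR2 on chromosome 7 had smaller changes than its 2.86. Within 500 kb of AGR2 or AGR3 lie 8 other protein-coding genes, of which 5 were tested, with 1 higher and 1 lower (edgeR). For all genes tested the shares were 17.2% higher and 17.4% lower. TSPAN13, a tetraspanin gene 7274 bases from AGR2, had 140.6 ± 2.44 CPM with APX2009 and 84.6 ± 3.74 CPM untreated (SD, n = 3 each; log2 change 0.73, edgeR adjusted p = 1.62e-05). BZW2 fell by 0.23 on the log2 scale (edgeR adjusted p = 0.0301). AHR, the aryl hydrocarbon receptor gene on the far side of AGR3, had 78.4 ± 8.12 CPM with APX2009 and 71.4 ± 1.99 CPM untreated and did not pass (log2 change 0.14, edgeR adjusted p = 0.209). Near TXNDC12 10 of 10 protein-coding genes were tested, and 1 was called, against 34.7% of all genes tested. It was OSBPL9, with a log2 change of 0.23 (edgeR adjusted p = 0.0150).

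**Figure D4:**
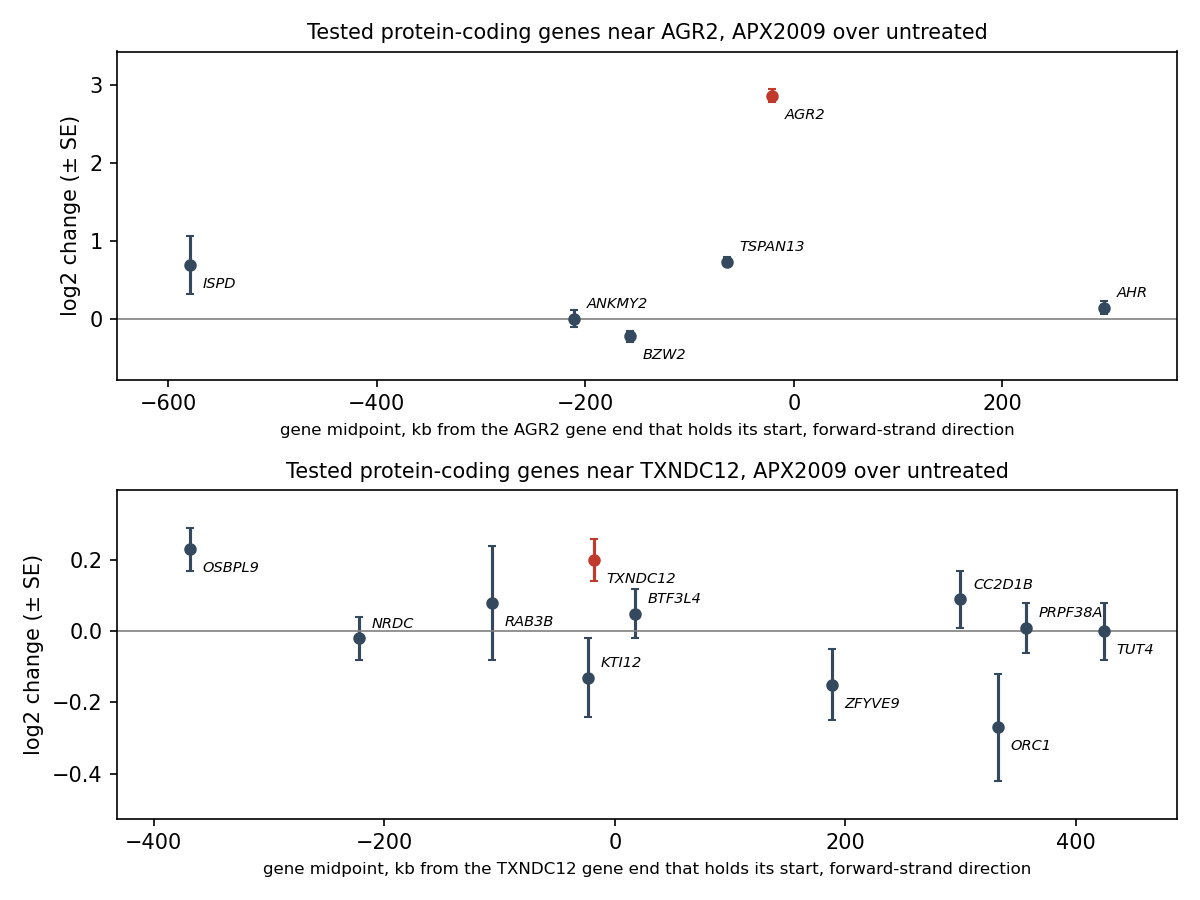
Log2 change (APX2009 over untreated, ± SE, edgeR) of tested protein-coding genes within 500 kb of AGR2 (upper panel) and TXNDC12 (lower panel), against the distance of each gene's midpoint in kb from the end of the member gene that holds its start. AGR2 at 2.86 is far above TSPAN13 at 0.73 and AHR at 0.14, and TXNDC12 at 0.20 lies within the spread of its neighbours; the vertical scales of the panels differ.

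The promoters of the 2 detected members are shown because their transcripts differ so much in response. Each is 250 bases before and 50 after the start, from RefSeq on GRCh38.p14, on the minus strand, written 5′ to 3′ with motif matches in capitals. All 3 members matched an entry, and TXNDC12 has 2, of which the one at the end of the annotated gene is shown. The positions are chr7:16804950-16805249 for AGR2, which lies inside the longer gene of GENCODE 29, and chr1:52056122-52056421 for TXNDC12. Nearly all of the TXNDC12 window lies also inside BTF3L4, which starts at chr1:52056125 on the other strand.
AGR2: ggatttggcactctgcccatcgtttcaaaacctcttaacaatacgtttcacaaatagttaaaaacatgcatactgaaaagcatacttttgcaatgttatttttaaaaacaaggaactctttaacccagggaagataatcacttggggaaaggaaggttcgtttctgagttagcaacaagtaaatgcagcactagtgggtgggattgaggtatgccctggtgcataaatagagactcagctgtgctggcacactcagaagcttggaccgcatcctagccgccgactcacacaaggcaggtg
TXNDC12: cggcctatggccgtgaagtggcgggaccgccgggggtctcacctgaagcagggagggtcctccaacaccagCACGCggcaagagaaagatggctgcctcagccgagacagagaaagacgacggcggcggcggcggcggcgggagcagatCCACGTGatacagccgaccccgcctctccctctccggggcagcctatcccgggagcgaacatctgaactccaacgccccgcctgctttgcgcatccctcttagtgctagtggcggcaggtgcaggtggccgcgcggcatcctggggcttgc

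Motifs were searched on both strands: the endoplasmic reticulum stress element (CCAAT, 9 bases, CCACG), its variant (ATTGG, 1 base, CCACG), each of CCAAT and CCACG alone, the unfolded protein response element TGACGTGG, the antioxidant element core (TGAC, 3 bases, GC), the xenobiotic element core GCGTG, the forkhead elements TGTTTAC and TATTTAC, and ACGTG. None of them was found in the window of AGR2. In that of TXNDC12, CCACG stood at position -101 from the start, overlapping ACGTG on both strands, and GCGTG stood at -179 in its reverse complement. The other TXNDC12 entry held CCACG at -163 and ACGTG at -118. Over 35116 promoters of this length, CCACG was in 38.1%, ACGTG in 21.4%, GCGTG in 36.5% and CCAAT in 34.6%. The full stress element was in 0.0769% of them, its variant in 0.0541%, TGACGTGG in 0.729%, TGTTTAC in 3.42% and TATTTAC in 2.67%. AGR3 had 1 match, the antioxidant core at position 31, which 13.3% of promoters hold. A match is not a site, and the lack of one says only that these letters are not in these 300 bases. The window of AGR2 held 43.7% G and C and those of TXNDC12 68.0% (the one shown) and 56.0%, against a median of 58.7%.

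The count of called genes depended on the scaling of the libraries. With TMM 2543 genes were higher and 2576 lower, and with the ERCC total 129 were higher and 7 lower. Without APX2009 replicate 1, the ERCC total gave 459 higher and 9230 lower, with a median log2 change over all genes tested of -0.48. Against that median, AGR2 was at 2.32 and TXNDC12 at -0.29. Of the 27 ATF6 and XBP1 targets, 9 were called in either direction with the ERCC total and 22 with it but without that library. These calls were not split by direction.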

How the data were processed

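The authors deposited raw whole-number counts per Ensembl gene for 6 libraries of polyadenylated RNA, with no normalization, and 92 ERCC spike-ins, which entered neither library sizes nor tests. Per the submitters' processing notes, Trimmomatic 0.36, STAR 2.5.2b, featureCounts and Subread 1.5.2 were used on GRCh38. For the annotation release, strand setting and filters: not given in the sources used here. GENCODE 29 gave symbols, coordinates and exon lengths for 57447 of 58051 IDs. Genes were filtered with filterByExpr, scaled by TMM and tested across all genes by quasi-likelihood in edgeR 4.0.16 (R 4.3.3) on treatment alone, with Benjamini-Hochberg adjustment, and called at an adjusted p under 0.05. The step was run on simulated data with few changed genes and no outlying library, so that run does not cover the wide change seen here. SE is the log2 change over the root of F. Lists were described by counts and medians. The members, lists and the rule for named genes were chosen with earlier results of these data known. The rule takes the 3 members, up to 8 genes of smallest p per list, genes of known direct role, protein-coding genes within 500 kb and the 5 closest profiles. COL3A1, DCN, CASQ2, MUC4 and genes at 0 were named after their values were seen. A gene that the rule takes is not reported here. Alternatives were other scalings and filters, DESeq2 1.42.0, limma 3.58.1 voom, a replicate block, and each library left out. Figures were drawn with matplotlib 3.10.9.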

Additional observations from a re-analysis of the deposited data

How the results depend on the processing

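The log2 change of AGR2 kept its direction under 16 alternatives, and moved by more than the spread between replicates with the ERCC total (2.97) and with the ERCC total without APX2009 replicate 1 (2.32), a setting chosen after seeing the data. That of TXNDC12 was 0.27 with the ERCC total and reversed to -0.29 in the added setting; its other alternatives gave 0.17 to 0.24. With TMM and 1 library left out, AGR2 ran from 2.80 to 2.90 and TXNDC12 from 0.17 to 0.24. No alternative gives a value for AGR3, which has no counts. Genes called, 5119 in all, numbered 3503 to 5709 with 1 library left out, 3057 at an adjusted p under 0.01, 4869 with DESeq2 and 136 with the ERCC total. On the ERCC scale 9 of 27 stress targets, 1 partner gene, 1 ciliated gene, and 0 thioredoxin-fold, 0 mucin, 0 regulator and 0 goblet genes were called (edgeR; 4, 2, 1 and 1 at an unadjusted p under 0.05); the cause was not tested. In the added setting 9689 genes were called, with 10 mucin, 12 partner and 8 ciliated genes, and 22 stress targets. The list counts on the ERCC scale hold calls in either direction. The other alternatives run on the lists left each count within 1.5 times; the stricter p was run on the count over all genes only. The labels share replicate numbers and do not say whether libraries were paired. Same-numbered libraries deviated together only weakly (correlations 0.14, 0.07 and 0.003). APX2009 replicates 1 and 2 correlated best with their own number, and replicate 3 with untreated replicate 2 (0.11). These values do not settle whether the libraries were paired. With the replicate block AGR2 was at 2.86, TXNDC12 at 0.20, and 5501 genes were called. Depth limits AGR3 and other genes below the filter, such as SPDEF.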

Other observations

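Columnar epithelial markers were lower or did not pass. Of 14 such genes 12 were tested, of which 0 rose and 5 fell (edgeR), against 17.2% and 17.4% of all genes tested. Their median log2 change was -0.06. At an unadjusted p under 0.05 in edgeR 1 was higher, and 0 rose with DESeq2. KRT19 and KRT8, keratins of simple epithelium, had 11290 and 1452 CPM with APX2009 and 18540 and 3066 CPM untreated (log2 changes -0.72 and -1.08, edgeR adjusted p = 1.85e-04 and 4.26e-05). CLDN4, ELF3 and CLDN3 had log2 changes of -0.07, -0.01 and -0.05 and did not pass.

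CASQ2, the cardiac calsequestrin gene and a member of the thioredoxin-fold list, had 3.92 CPM in APX2009 replicate 1 and was at 0 in the other 5 libraries. RAP1GAP, in the goblet list, had 56.3 CPM with APX2009 and 17.6 CPM untreated (edgeR adjusted p = 1.09e-06).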
